A study of Ambystoma mexicanum and Ambystoma andersoni and Ambystoma maculatum with 18 samples.

Results

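The transcripts described here are the most abundant ones of the forelimb tip of larval spotted salamanders, Ambystoma maculatum. Limbs were cut through the zeugopod, the lower arm, and the distal 1 mm of tissue was taken 24 h later (3 libraries) or at once, at 0 h (3 libraries). Each library pooled the mixed tissue of 5 larvae, all of them amputated, with no other treatment given in the labels. The labels do not say whether the 3 libraries of a time came from separate clutches or days, so p-values measure the spread between these pools. The deposited table gives expected read counts for 474849 assembled features. One feature, Mac_TR149098_c7_g3, had the highest mean share of the counts and was set aside. For every other feature the counts were divided by the remaining counts of the library and multiplied by 1000000, which gives the CPM, a count per 1000000 counts outside the most abundant feature. The members are the 100 features whose mean over the 6 libraries was 1000 CPM or more. The mean level thus chose them, and levels are given below as a description. The change between times was not part of the choice, except that a feature far above 1000 CPM at 1 time could qualify through that time alone.

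A salamander limb stump is covered by wound epidermis soon after amputation, and tissue under the cut, muscle included, is broken down before a blastema of progenitor cells forms. The most abundant transcripts of a vertebrate tissue usually come from the mitochondrial genome, from genes for ribosomal proteins and translation factors, and from genes for the main structural proteins of the cell types present, such as keratins, collagens and contractile proteins. Which of these a member encodes is not known here. The feature IDs carry no gene names. By ID, 0 of the 100 members were found in the RefSeq gene table of the axolotl (assembly UKY_AmexF1_1). The same held for 0 of all 474849 features, so this is not particular to the members and says nothing about axolotl counterparts. Members therefore appear under their IDs, no role is given to any of them and the tissue could not be checked against marker genes. CPM is not divided by transcript length, so the order of members is an order of read counts and not of molecules. In tissue samples, fewer cells of a type and less RNA per cell cannot be told apart.

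Library totals were 8037090, 13018520 and 14703788 counts at 24 h, against 12200157, 14826773 and 14033376 counts at 0 h. The feature set aside held 44.4%, 64.5% and 51.9% of all counts in the 24 h libraries, against 23.7%, 20.7% and 24.9% in the 0 h libraries. Its share was thus higher in every 24 h library, and all other features shared the smaller remainder (exact permutation p = 0.1, two-sided, the smallest p that 3 libraries against 3 can give). What part this had in the changes below was not tested beyond the fits on other library sizes and without this feature, given below. Within that remainder the 100 members held 49.3%, 57.5% and 40.4% in the 24 h libraries, against 49.04%, 46.7% and 42.8% in the 0 h libraries. The times overlapped, with 49.1% ± 8.55 at 24 h and 46.2% ± 3.12 at 0 h (SD, n = 3 each), and the difference of 2.90 percentage points was smaller than the spread among the 24 h libraries (exact permutation p = 0.6). The 24 h library 2 was the highest of the 6, and without it the difference was -1.31 points. This total joins groups of members whose shares moved in opposite directions, given below. As a share of all counts, the feature set aside included, the members held 27.4%, 20.4% and 19.5% at 24 h, against 37.4%, 36.98% and 32.2% at 0 h, and the times did not overlap (exact permutation p = 0.1).

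**Figure D1:**
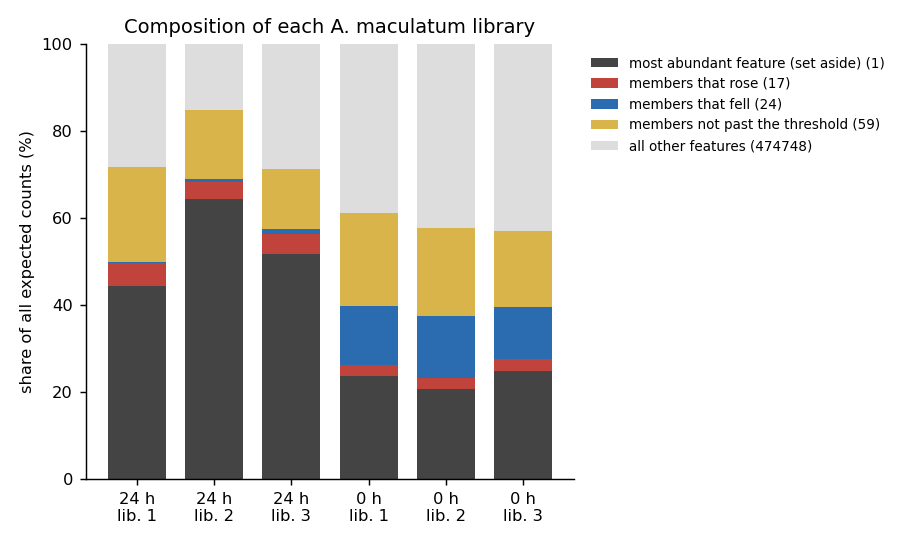
Stacked bars give the share of all expected counts (%) in each of the 6 libraries for the feature set aside, the members that rose, fell or did not pass the threshold of the edgeR test, and all other features. The members that fell hold 0.178% to 1.14% in the 24 h libraries and 11.9% to 14.2% in the 0 h libraries.

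Counts were concentrated in few members. The highest mean was 63381 CPM and the median of the 100 means was 1749 CPM. It took 9 members to reach 50% of their summed mean CPM, and the 3 highest held 32.1% of it. A mean of at least 10000 CPM was reached by 11 members, of at least 5000 CPM by 19 and of at least 2000 CPM by 45. Over both times the table held 88 features that averaged 1000 CPM or more at 24 h and 101 at 0 h. Of the members, 64 reached that level at both times, 14 at 24 h only and 22 at 0 h only. Conversely, 10 features outside the members had a mean of at least 1000 CPM at 24 h and 15 had one at 0 h. The 10 highest features at 24 h and the 10 highest at 0 h shared 5, and the 20 highest of each time shared 10.

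Between 24 h and 0 h, 17 of the 100 members rose and 24 fell (edgeR quasi-likelihood test on all 27360 features that passed the filter on low counts, with an adjusted p under 0.05 as the threshold). All 100 members were tested. Of all tested features 22% were called, 10.2% as rises and 11.8% as falls. Among the 861 features with a mean of 100 to 1000 CPM the share called was 46.3%, and among the 7073 with 10 to 100 CPM it was 34.2%. Thus 41 calls in 100 did not set the members apart from these features, all of which had lower means. Of the 64 members above 1000 CPM at both times, 7 rose and 6 fell, 20.3% in all. Being held to that level at both times tends in itself to leave out large changes. Of the 36 above 1000 CPM at 1 time only, which could qualify through the time at which they were high, 28 were called. These were 10 rises among the members above it at 24 h only and 18 falls among those above it at 0 h only. The median log2 fold change was 0.14 over the members and -0.01 over all tested features, and the median of its absolute size was 0.88 and 0.60. That median was 0.81 among the features of 100 to 1000 CPM and 0.54 among those of 10 to 100 CPM. The plot of levels by time shows the members in 3 groups, which are described in turn.

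**Figure D2:**
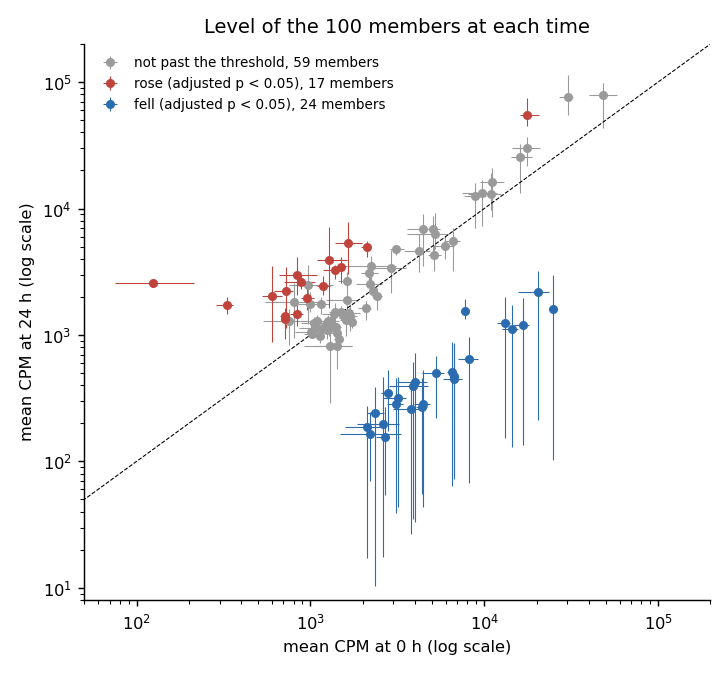
Each point is 1 of the 100 members, with its mean CPM at 24 h on the vertical axis and at 0 h on the horizontal axis, both on log scales. Bars run from the lowest to the highest of the 3 libraries, the dashed line marks equal levels, and the 24 members that fell (blue) form a band below it while the others lie near or above the line.

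The 24 members that fell were among the leading transcripts of the 0 h limb tip. At 0 h they included 5 of the 10 and 10 of the 20 features with the most counts, and at 24 h they included 0 of the 10 and 0 of the 20. Together they held 0.319%, 1.82% and 2.36% of the remaining counts in the 24 h libraries, against 17.8%, 17.96% and 15.9% in the 0 h libraries, a description of features selected by the same test. Their log2 fold changes ran from -4.02 to -2.19 with a median of -3.53, and 22 of the 24 were past -3. Of the 24, 18 averaged 1000 CPM or more at 0 h only and could qualify through that time. The sizes of the falls and their places at 0 h thus depend in part on the rule. In all 24 the highest 24 h library was below the lowest at 0 h, where 23.4% of tested features had that order. The test that chose the 24 used the same libraries, so this order is also a description.

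The fall with the highest level, Mac_TR69875_c12_g1, had 103, 1779 and 2953 CPM in the 24 h libraries, against 24373, 23980.0 and 26216 CPM in the 0 h libraries. It averaged 1611 ± 1432 CPM at 24 h and 24856 ± 1194 CPM at 0 h (SD, n = 3 each), a log2 fold change of -3.86 (edgeR adjusted p = 0.015, SE 0.92), and stood 45th by mean CPM at 24 h and 3rd at 0 h. The 0 h libraries lay close together, while the 24 h libraries spanned 28.8-fold, from library 1 at the low end to library 3. Mac_TR59372_c0_g1 had 214, 3139.6 and 3227 CPM in the 24 h libraries, against 23605, 21792 and 15722 CPM in the 0 h libraries. Here 24 h libraries 2 and 3 were alike and library 1 was far below both. Its edgeR adjusted p was 0.027 and its log2 fold change -3.08, and the call was lost without 0 h library 1 (adjusted p = 0.068), without 0 h library 2 (0.072) and without 24 h library 3 (0.051). Mac_TR91126_c0_g1 had 135, 1512 and 1954 CPM in the 24 h libraries, against 18064, 17333 and 14845 CPM in the 0 h libraries, a log2 fold change of -3.69 (edgeR adjusted p = 0.0098, SE 0.80). Its 24 h libraries also stood in the order 1 below 2 below 3.

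By size of change the largest fall was that of Mac_TR42583_c0_g2, with 54.6, 144 and 267 CPM in the 24 h libraries, against 2393, 2766 and 2848 CPM in the 0 h libraries. Its means were 155 ± 107 CPM at 24 h and 2669 ± 242 CPM at 0 h (SD, n = 3 each), a log2 fold change of -4.02 (edgeR adjusted p = 0.00059, SE 0.49). The times were far apart, and library 1 was the lowest of the 24 h libraries. Mac_TR43319_c0_g2 had 54.8, 297 and 453 CPM in the 24 h libraries, against 4388, 4702 and 4049 CPM in the 0 h libraries, a log2 fold change of -3.93 (edgeR adjusted p = 0.0025, SE 0.64). Mac_TR60054_c1_g2 had 43.6, 280.1 and 526 CPM in the 24 h libraries, against 3921, 4872 and 4456 CPM in the 0 h libraries, a log2 fold change of -3.89 (edgeR adjusted p = 0.004, SE 0.70). Both followed the same pattern, with narrow 0 h values and 24 h libraries that stood in the order 1, 2, 3 from low to high.

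The next falls by size were close to each other. Mac_TR80163_c0_g1 had 79.7, 401 and 858 CPM in the 24 h libraries, against 5819, 7414 and 6803 CPM in the 0 h libraries (log2 fold change -3.85, edgeR adjusted p = 0.0035). Mac_TR82203_c3_g3 had 72.04, 514 and 842 CPM in the 24 h libraries, against 6518, 6927 and 6774 CPM in the 0 h libraries (log2 fold change -3.73, edgeR adjusted p = 0.005). Mac_TR73931_c0_g2 had 26.7, 368 and 388 CPM in the 24 h libraries, against 4323, 4082 and 2969 CPM in the 0 h libraries (log2 fold change -3.73, edgeR adjusted p = 0.01). In these 3 the 24 h library 1 was between 10.8-fold and 14.5-fold below the highest 24 h library. Mac_TR32943_c1_g1 had 17.4, 103 and 468 CPM in the 24 h libraries, against 1859.7, 2719.7 and 3241 CPM in the 0 h libraries (log2 fold change -3.75, edgeR adjusted p = 0.012), and its call was lost without 24 h library 2 (adjusted p = 0.054). Its 24 h library 3 stood far above library 2.

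What remained of these transcripts at 24 h depended on the library. As a percentage of the mean 0 h CPM, the median over the 24 members was 1.02% in 24 h library 1, 10.8% in library 2 and 12.9% in library 3. In CPM, library 1 was the lowest of the 3 in all 24 members. It was the lowest in 1 of the 17 members that rose and in 6 of the other 59. The share over all tested features is not given. The 24 members were measured in the same 3 libraries, so their shared order is not repeated evidence about library 1. On the library size adjusted by TMM, edgeR's normalization, library 1 was the lowest in 24 falls, 1 rise and 4 of the other 59. On that scale the medians were 1.15%, 14.5% and 11.3%, so the order of libraries 2 and 3 depended on the scaling. Library 1 at 24 h had the fewest counts of the 6, at 8037090 in all. Outside the feature set aside it had 4469984 counts, against 4627633 in library 2 and 7079066 in library 3. The TMM-adjusted size was smaller in library 2, at 5958951, than in library 1, at 6841942. The smallest count of any member in any library, that of Mac_TR69896_c1_g2 in 24 h library 1, was 46 (exact 95% Poisson interval 33.7 to 61.4, counting error only). What part depth had in this order was not tested. Without library 1, a fit in which 18% of tested features were called, all 24 members were still called as falls, and their median log2 fold change was -3.01. The members with the widest spread within a time were Mac_TR69896_c1_g2 (38.0-fold between its highest and lowest 24 h library, and not called without any 1 of the 0 h libraries, 24 h library 2 or 24 h library 3, with edgeR adjusted p of 0.058 to 0.083), Mac_TR69875_c12_g1 and Mac_TR32943_c1_g1 (26.8-fold), all falls. A member chosen after its values were seen, Mac_TR49819_c0_g1, departed from the pattern: it had 1336, 1382 and 1929 CPM in the 24 h libraries, against 7534, 8163 and 7527 CPM in the 0 h libraries, which left 17.3%, 17.9% and 24.9% of its mean 0 h CPM, and its 24 h libraries differed by little.

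**Figure D3:**
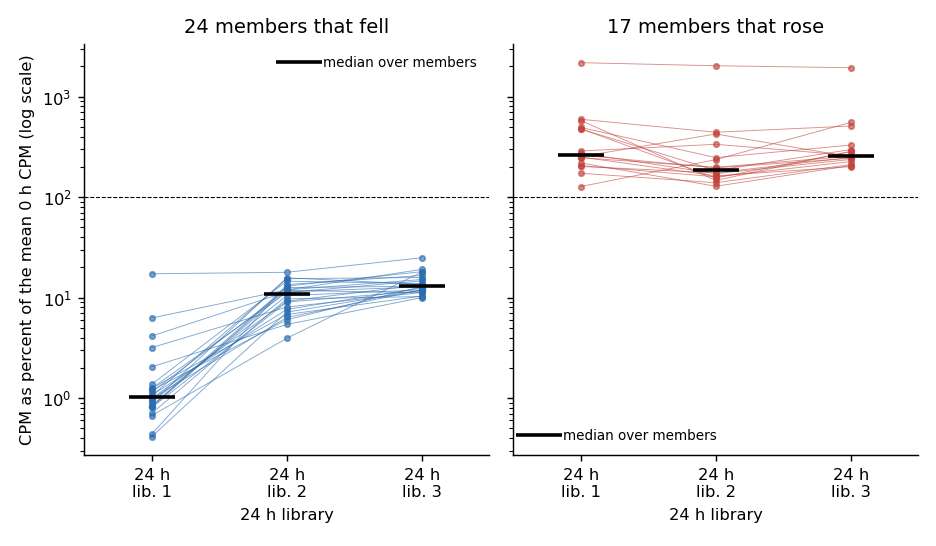
For each member that fell (left) or rose (right), points give the CPM in each 24 h library as a percentage of the mean CPM of the 3 libraries at 0 h, on a log scale, with lines joining the values of 1 member and black marks at the medians. The median of the members that fell sits at 1.02% in library 1, at 10.8% in library 2 and at 12.9% in library 3.

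Of the 3 groups of members, the falls varied most between libraries. The median biological coefficient of variation that edgeR fitted was 58.1% for the members that fell, 28.0% for those that rose and 28.3% for the other 59, against 29.5% over all tested features. The median coefficient of variation of the CPM was 78.0% at 24 h and 11.4% at 0 h for the falls, and it was higher at 24 h in 24 of 24. For the members that rose these medians were 21.5% at 24 h and 13.1% at 0 h, and for the other 59 they were 19.2% and 13.0%.

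The 17 members that rose had log2 fold changes from 0.93 to 4.49 with a median of 1.69. Of them, 10 averaged 1000 CPM or more at 24 h only and could qualify through that time. All 17 had every 24 h library above every 0 h library, where 13.9% of tested features did so. The test that chose the 17 used the same libraries, so that order and the shares that follow are a description. Together they held 9.52%, 10.9% and 9.16% of the remaining counts in the 24 h libraries, against 3.26%, 3.21% and 3.61% in the 0 h libraries. A log2 fold change above 3 was found in 1 of the 17. Mac_TR78713_c2_g1 had 2715, 2529.9 and 2418 CPM in the 24 h libraries, against 213, 85.5 and 75.4 CPM in the 0 h libraries. Its means were 2554 ± 149.8 CPM at 24 h and 124 ± 76.5 CPM at 0 h (SD, n = 3 each), a log2 fold change of 4.49 (edgeR adjusted p = 0.00047, SE 0.52), and it was the 29th feature by mean CPM at 24 h and the 771st at 0 h. The 24 h libraries differed by a factor of 1.12 at most, while 0 h library 1 stood above the other 2. Mac_TR100059_c0_g1 had 1980.0, 1472 and 1697 CPM in the 24 h libraries, against 352, 358 and 288 CPM in the 0 h libraries, a log2 fold change of 2.51 (edgeR adjusted p = 0.00056, SE 0.30), with libraries of a time close together. These 2 members passed the threshold under all 14 alternative settings.

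Among the rises, 3 members share their ID up to the last number. Mac_TR43407_c4_g1 had 7889, 3052 and 4932 CPM in the 24 h libraries, against 1993, 1387 and 1587 CPM in the 0 h libraries, a log2 fold change of 1.80 (edgeR adjusted p = 0.011, SE 0.40). Mac_TR43407_c4_g3 had 4112, 2059 and 2746 CPM in the 24 h libraries, against 1096, 663 and 738 CPM in the 0 h libraries, a log2 fold change of 1.97 (edgeR adjusted p = 0.0056, SE 0.38). Mac_TR43407_c4_g6 had 3474, 1127 and 2062 CPM in the 24 h libraries, against 767, 614 and 794 CPM in the 0 h libraries, a log2 fold change of 1.75 (edgeR adjusted p = 0.011, SE 0.39). In CPM all 3 were highest in 24 h library 1 and lowest, among the 24 h libraries, in library 2. On library totals none of these 3 was called (edgeR adjusted p of 0.088 to 0.17), and without 0 h library 2 the calls of Mac_TR43407_c4_g1 (edgeR adjusted p = 0.072) and Mac_TR43407_c4_g6 (0.071) were lost. Mac_TR82833_c0_g1 had the same order, with 3500.2, 887 and 1728 CPM in the 24 h libraries, against 685, 525 and 603 CPM in the 0 h libraries, a log2 fold change of 1.88 (edgeR adjusted p = 0.016, SE 0.46). Its call was lost on library totals (edgeR adjusted p = 0.13), without 0 h library 2 (0.083) and without 0 h library 3 (0.064). Mac_TR102898_c3_g8 had another order, with 2556, 2979 and 2308 CPM in the 24 h libraries, against 885, 1069 and 708 CPM in the 0 h libraries, a log2 fold change of 1.74 (edgeR adjusted p = 0.0075, SE 0.36), and its call was lost on library totals (adjusted p = 0.17).

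Mac_TR149098_c7_g1 was the rise with the highest level and shares its ID up to the last number with the feature set aside. It had 44891, 75335 and 44572 CPM in the 24 h libraries, against 16070.1, 16505 and 20569 CPM in the 0 h libraries, a log2 fold change of 1.86 (edgeR adjusted p = 0.025, SE 0.50). Its 24 h library 2 stood above the other 2. The call was lost on library totals (edgeR adjusted p = 0.17), with edgeR's newer quasi-likelihood method (adjusted p = 0.22) and without any 1 of the 0 h libraries (0.054 to 0.134) or 24 h library 2 (0.083). The last member with that ID stem, Mac_TR149098_c7_g2, had 54904, 113120.1 and 61107 CPM in the 24 h libraries, against 32437, 26880.4 and 31703 CPM in the 0 h libraries, and did not pass the threshold although the times did not overlap (log2 fold change 1.56, SE 0.55, edgeR adjusted p = 0.071). It passed under 5 of the 14 alternative settings, among them DESeq2 (adjusted p = 0.0021). Set against the feature set aside, a comparison that needs no library scaling, neither member was higher at 24 h in every library. The counts of Mac_TR149098_c7_g2 were 6.88%, 6.24% and 5.67% of those of Mac_TR149098_c7_g3 in the 24 h libraries, against 10.4%, 10.3% and 9.58% in the 0 h libraries, with no overlap (exact permutation p = 0.1). For Mac_TR149098_c7_g1 the percentages were 5.63%, 4.15% and 4.14% at 24 h, against 5.16%, 6.31% and 6.22% at 0 h, and the times overlapped (exact permutation p = 0.2). Both members had counts that were not whole numbers in every library, so reads were divided between features and these percentages also depend on that division.

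The rises were fewer under some settings but not under all. With the most abundant feature left out of the fit, all 17 rises and all 24 falls were still called. In that fit 22.5% of 26558 tested features were called. With library totals in place of TMM, on which the median over all tested features shifted to -0.86 (log2), 2 of the 17 were still called, although all 17 kept a positive log2 fold change. Without 0 h library 2 there were 4 rises and without 0 h library 3 there were 10, all 4 and all 10 among the 17. The falls numbered 20 to 26 under every one of the 14 settings, and 19 of the 24 were called in each of them. The share of all tested features called ran from 12.1% without 0 h library 2 to 26.2% on library totals, with 25.2% without 24 h library 3, and was 1.7% of the 352216 features tested with no filter on low counts.

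**Figure D4:**
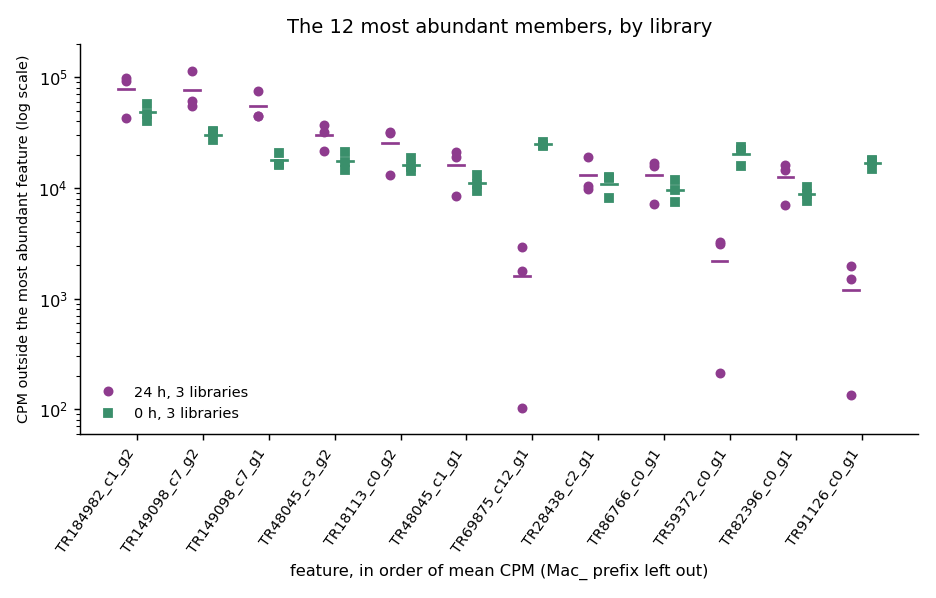
Points give the CPM outside the most abundant feature (log scale) of the 12 members with the highest mean, in the 3 libraries at 24 h (circles) and the 3 at 0 h (squares), with bars at the means. In 3 of the 12 the 24 h libraries lie far below those at 0 h, and Mac_TR149098_c7_g1 is the 1 member of the 12 that rose.

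The remaining 59 members did not pass the threshold, and 8 of them are among the 12 with the highest mean. Together the 59 held 39.5%, 44.8% and 28.9% of the remaining counts at 24 h, against 27.9%, 25.5% and 23.4% at 0 h, without overlap. The mean change was 12.1 percentage points, against 6.49 for the rises and -15.7 for the falls, a description without a test. As a share of all counts the 59 held 22.0%, 15.9% and 13.9% at 24 h, against 21.3%, 20.2% and 17.5% at 0 h, with overlap. Mac_TR184982_c1_g2, first at 24 h and at 0 h alike, had 93456, 98727 and 43221 CPM in the 24 h libraries, against 57869, 46935 and 40079 CPM in the 0 h libraries. It averaged 78468 ± 30638 CPM at 24 h and 48294 ± 8973 CPM at 0 h (SD, n = 3 each), a log2 fold change of 0.92 (edgeR adjusted p = 0.3, SE 0.58). Libraries 1 and 2 at 24 h lay above every 0 h library and library 3 did not. Mac_TR18113_c0_g2 had 32183, 31389 and 13198 CPM in the 24 h libraries, against 18810.3, 15315 and 14177 CPM in the 0 h libraries (log2 fold change 0.89, SE 0.53, edgeR adjusted p = 0.27). Mac_TR48045_c1_g1 had 20976, 19175 and 8489 CPM in the 24 h libraries, against 13056, 10763 and 9438 CPM in the 0 h libraries (log2 fold change 0.77, SE 0.51, edgeR adjusted p = 0.33). In both, 24 h library 3 was below the lowest 0 h library.

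The share of tested features with this arrangement, 24 h libraries 1 and 2 above every 0 h library and library 3 not, is not given. As a description in CPM, it was seen in 10 of the 59 members, 5 of them among the 12 highest. Mac_TR86766_c0_g1, another of the 5, had 16701, 15678 and 7215 CPM in the 24 h libraries, against 11889.8, 9569 and 7480.3 CPM in the 0 h libraries, and its log2 fold change was 0.66 (edgeR adjusted p = 0.4). Mac_TR82396_c0_g1 had 14406, 15979.5 and 6980.3 CPM in the 24 h libraries, against 10225, 8842 and 7631 CPM in the 0 h libraries, and its log2 fold change was 0.71 (edgeR adjusted p = 0.35). Mac_TR48045_c3_g2 came close to it but did not overlap in CPM, with 32324, 36915 and 21528 CPM in the 24 h libraries, against 21060.0, 17166 and 14405 CPM in the 0 h libraries (log2 fold change 0.99, edgeR adjusted p = 0.18). On the TMM-adjusted size its times overlapped. An opposite order was seen in Mac_TR28438_c2_g1, with 9758, 10409 and 19018 CPM in the 24 h libraries, against 8053, 12221 and 12563 CPM in the 0 h libraries (log2 fold change 0.37, edgeR adjusted p = 0.53), where library 3 was the highest at 24 h. On library totals alone the log2 fold changes of these members were -0.48 to 0.02. The order of libraries also moves with the scale, since the TMM-adjusted size was 1.29 times the counts outside the most abundant feature in 24 h library 2 and 1.97 times in library 3. Library 3 was the lowest of the 24 h libraries in 19 of the 59 members by CPM and in 47 on the TMM-adjusted size.

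A log2 fold change under 0.5 in size was found in 39 of the 59, and the range over all 59 was -0.68 to 1.59. The 3 nearest 0 began with Mac_TR95241_c0_g1, with 1532, 1279.7 and 1572 CPM in the 24 h libraries, against 1735, 1649 and 1394 CPM in the 0 h libraries. Mac_TR58181_c0_g2 had 1465, 1265 and 1556 CPM in the 24 h libraries, against 1731, 1624 and 1291 CPM in the 0 h libraries. Mac_TR77557_c0_g2 had 1637, 1242 and 1616 CPM in the 24 h libraries, against 1927, 1649 and 1418 CPM in the 0 h libraries. Their log2 fold changes were 0.01 (SE 0.28), 0.02 (SE 0.29) and -0.02 (SE 0.29), and their 24 h and 0 h libraries overlapped. Libraries of the 2 times did not overlap in 13 of the 59, 7 of them higher and 6 lower at 24 h. With the called members that makes 54 of 100 without overlap, where 37.3% of tested features had none. On the TMM-adjusted library size it was 50 of 100, 24 of them higher and 26 lower at 24 h, where 40.1% of tested features had none. The smallest rise that was called had a log2 fold change of 0.93, and a member that missed the threshold is not shown to be level.

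**Figure D5:**
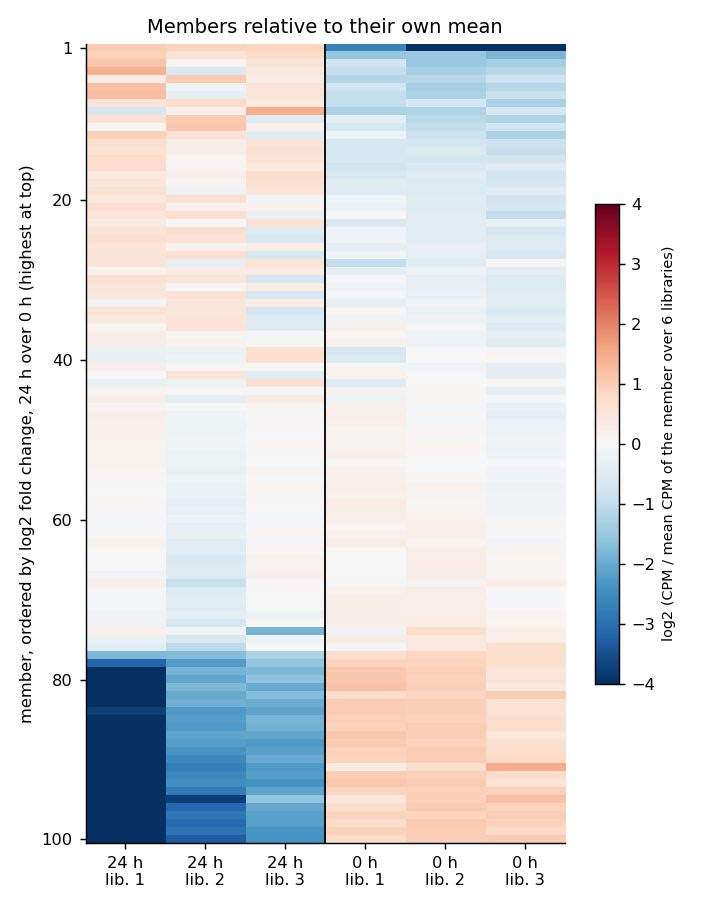
Rows are the 100 members, ordered by log2 fold change with the highest at the top, and columns are the 24 h and the 0 h libraries. Colour gives log2 of the CPM over the member's mean CPM, with values beyond -4 and 4 shown in the end colours, and the 24 members at the bottom are lowest in 24 h library 1.

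Among the members, 24 share their ID up to the last number with at least 1 other member, in 11 groups. How the numbers were given is not stated, and the expected counts divide reads that match several features, so members of a group may trade counts. Calls were alike in 9 groups: 3 groups fell, 1 rose and 5 did not pass the threshold. The falls were Mac_TR43319_c0_g1 and _g2 (log2 fold changes -3.58 and -3.93), Mac_TR60054_c1_g2 and _g3 (-3.89 and -3.35) and Mac_TR82203_c3_g3 and _g5 (-3.73 and -3.18), all with whole counts in all 6 libraries. The rise was the group of Mac_TR43407_c4 given above.

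Calls differed in the group of Mac_TR149098_c7, given above, and in 1 more. Mac_TR58193_c2_g1 rose, with 3422, 2749 and 3544 CPM in the 24 h libraries, against 1439.8, 1535 and 1183 CPM in the 0 h libraries (log2 fold change 1.36, SE 0.30, edgeR adjusted p = 0.01), a call lost on library totals (edgeR adjusted p = 0.4) and without 0 h library 2 (0.053). Mac_TR58193_c2_g2 had 824, 540.2 and 1081 CPM in the 24 h libraries, against 1051, 1469 and 1734 CPM in the 0 h libraries, overlapping between times in CPM (log2 fold change -0.68, SE 0.27, edgeR adjusted p = 0.11). On the TMM-adjusted size its 24 h libraries were all below those at 0 h. The counts of the second were 24.1%, 19.7% and 30.5% of those of the first in the 24 h libraries, against 73.00%, 95.6% and 147% in the 0 h libraries. The ratio needs no library scaling, and the 24 h values were all lower than those at 0 h (exact permutation p = 0.1, 1 of 15 ratios computed). Mac_TR58928_c1_g4 and Mac_TR58928_c1_g2, both short of the threshold, had log2 fold changes of 1.37 and -0.14, and the counts of the first were 36.7%, 60.5% and 14.96% of those of the second at 24 h, against 19.4%, 11.01% and 7.56% at 0 h, with overlap (exact permutation p = 0.2). Ratios without overlap were also found for Mac_TR18113_c0_g1 over _g2, 14.1%, 19.9% and 23.99% at 24 h against 25.8%, 28.7% and 24.4% at 0 h, for Mac_TR60054_c1_g3 over _g2, 89.7%, 126% and 87.2% at 24 h against 81.6%, 69.9% and 62.2% at 0 h, and for Mac_TR149098_c7_g1 over _g2, 81.8%, 66.6% and 72.9% at 24 h against 49.5%, 61.4% and 64.9% at 0 h (exact permutation p = 0.1 each).

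In 4 groups short of the threshold all members had positive log2 fold changes. Mac_TR179733_c0_g5, _g16 and _g12 had log2 fold changes of 0.66, 0.86 and 0.44, with 7874, 8669.6 and 4086 CPM in the 24 h libraries, against 5593, 5215 and 4457 CPM in the 0 h libraries, for the highest of them. Mac_TR28438_c2_g1 and _g4 had 0.37 and 0.68, Mac_TR30348_c2_g2 and _g1 had 0.38 and 0.77, and Mac_TR18113_c0_g2 and _g1 had 0.89 and 0.35. On library totals alone all 9 of these values were below 0. Mac_TR30348_c2_g2 was highest in 24 h library 3, with 4779, 4814 and 9218 CPM in the 24 h libraries, against 3599, 5769 and 6231 CPM in the 0 h libraries, the order also seen in Mac_TR28438_c2_g1.

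Features below the member threshold that share the ID stem of a member are a separate reading, although not independent of it where reads are divided. Of 23 tested features that share a stem with members that fell, in 10 stems, 19 fell and 0 rose, with a median log2 fold change of -3.50 at a median level of 33.8 CPM. Of 12 that share a stem with members that rose, in 6 stems, 6 rose and 0 fell, with a median log2 fold change of 1.41 at a median level of 70.0 CPM. Of 27 that share a stem with members short of the threshold, 3 rose and 4 fell. These tallies take stems whose members had like calls and leave out the feature set aside. In the stem of Mac_TR58193_c2, with 1 member that rose and 1 short of the threshold, the tested feature outside the members, Mac_TR58193_c2_g4, was not called (log2 fold change 0.39, edgeR adjusted p = 0.3). Over all tested features 11.8% fell and 10.2% rose. Among the 7073 with a mean of 10 to 100 CPM, 1125 fell and 1297 rose, 34.2% in all. The stem Mac_TR87133_c1 alone gave 9 of the 23, of which 8 fell, among them Mac_TR87133_c1_g10 (log2 fold change -3.75, edgeR adjusted p = 0.00041). The tested features that share a stem with the steepest rise and fall were Mac_TR78713_c2_g2 (log2 fold change 3.35, edgeR adjusted p = 0.00026) and Mac_TR42583_c0_g1 (-3.32, edgeR adjusted p = 0.009).

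Counts that are not whole numbers show where reads were divided among features. Of the members, 53 had whole counts in all 6 libraries (within 0.005), against 76.7% of tested features, and 30 had counts that were not whole in every library. Whole counts throughout were found in 16 of the 24 members that fell, 7 of the 17 that rose and 30 of the other 59. The largest fall, Mac_TR42583_c0_g2, was whole in every library, and the largest rise, Mac_TR78713_c2_g1, was whole in all but 1.

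At the threshold of 1000 CPM, the members just inside were Mac_TR86265_c0_g3 (mean 1022 CPM), Mac_TR104088_c0_g3 (1022 CPM) and Mac_TR42574_c2_g1 (1021 CPM). The features just outside were Mac_TR74628_c1_g2 (993 CPM), Mac_TR55670_c0_g3 (991 CPM) and Mac_TR35646_c1_g4 (984 CPM). Mac_TR86265_c0_g3 was called as a rise, with 1573, 922 and 1482 CPM in the 24 h libraries, against 709.6, 693 and 754 CPM in the 0 h libraries, a call that was lost under 6 of the 14 alternative settings, and the other 2 just inside were not called.

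In the tables of the other 2 species the same rule gave 138 features for A. mexicanum, the axolotl, and 109 for A. andersoni. Features of different species are not matched, so only the share of counts was tested. These features held 33.6% ± 2.40 at 24 h and 34.6% ± 0.574 at 0 h in A. mexicanum, and 31.7% ± 3.17 at 24 h and 34.6% ± 2.54 at 0 h in A. andersoni (SD, n = 3 each). The change was 2.90 percentage points in A. maculatum, against -1.01 points in A. mexicanum and -2.85 points in A. andersoni. The signed differences were 3.91 points from A. mexicanum and 5.75 points from A. andersoni, neither past the threshold (exact permutation of times within both species over 400 arrangements, p = 0.495 and 0.33, Benjamini-Hochberg p = 0.495 for both). Both directions turned when shares were taken of all counts, to -15.1 points for A. mexicanum and -10.6 points for A. andersoni (exact permutation, Benjamini-Hochberg p = 0.05 and 0.115). Without 24 h library 2 the differences were -0.30 points for A. mexicanum and 1.54 points for A. andersoni. As a description, the highest member of A. maculatum had 63381 CPM on average, against 22255 CPM in A. mexicanum and 20910.1 CPM in A. andersoni. Their tables divide the counts over 898057 and 889287 features, against 474849 for A. maculatum. The share held by the feature set aside in each of those 2 species is not given. What part these had in the levels, the numbers of features past the rule and their shares was not tested.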

How the data were processed

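RNA sequencing libraries of A. maculatum limb tips were compared, 3 at 24 h and 3 at 0 h, each a pool of 5 larvae, and the same shares were computed for the other species of the 18-library series. For each assembled feature the authors deposited an expected count estimated with RSEM, per the labels. For RSEM's version, the aligner and the assembly, each is not given in the sources used. Library totals ran from 8037090 to 14826773 counts, and intervals cover counting error only. All value columns were mapped to a library, so 0 were left unused.

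Expected counts were rounded for the test. Features were filtered with edgeR's filterByExpr (minimum count 10, minimum total 15), library sizes were recomputed on the features kept, and edgeR 4.0.16 (R 4.3.3) fitted TMM-normalised counts with the older quasi-likelihood method, p-values being adjusted by Benjamini-Hochberg over all 27360 features tested. A standard error is the size of the log2 fold change over the square root of F. Single shares and ratios were compared by two-sided exact permutation tests (scipy 1.17.1). The fit was run on simulated data as a check of the code only, without the shift seen here in the most abundant feature. Alternatives were DESeq2 1.42.0, other normalizations and filters, and leaving out each library. For named members, lost calls are given beside the result, and changes of sign and gained calls in the closing section.

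The members and lists were chosen with earlier results of these data known. Members named in the text are the 12 with the highest mean CPM, the 8 largest rises and 8 largest falls among members called without overlap, the 3 nearest the threshold on its inner side with the 3 features nearest outside, members that share an ID stem with another member, the 3 with the widest spread within a time and the 3 uncalled members with a change nearest 0. Relatives of members by ID, percentages of the 0 h level, count ratios within an ID stem and the orders of libraries within a time were added after the values were seen. Library numbers follow accession order and pair nothing.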

Additional observations from a re-analysis of the deposited data

How the results depend on the processing

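No paired analysis was possible because the labels give no replicate numbers, and library numbers here are only names. All 41 called members kept their direction under all 14 alternatives, and 2 rises and 19 falls stayed past the threshold in each. The DESeq2 test called 48 members, 23 as rises and 25 as falls, where it called 23.3% of all tested features. On library totals, where the median over all tested features was -0.86, 752 features rose and 6411 fell, and 2 members rose. Leaving out 1 library gave 3486 to 7405 called features, 1563 to 3289 rises and 1923 to 4116 falls, and 24 to 46 called members, 4 to 25 of them rises, with the lowest counts without 0 h library 2. The change in the members' share was -13.1 points of all counts (exact permutation p = 0.1) and -1.31 to 7.23 points with 1 library left out. Its difference from A. mexicanum was -15.1 points of all counts (exact permutation, Benjamini-Hochberg p = 0.05) and -0.30 to 8.24 points with 1 library left out, and its difference from A. andersoni was -10.6 points of all counts (exact permutation, Benjamini-Hochberg p = 0.115) and 1.54 to 10.1 points with 1 library left out. With TMM and all libraries, 22% of all tested features were called, 10.2% as rises and 11.8% as falls. Among those with a mean of 100 to 1000 CPM the share called was 46.3%. Beside these shares, the rule gave 52 members on TMM-adjusted library size (9 rose and 17 fell) and 54 with the most abundant feature kept in the denominator. It gave 204 at a threshold of 500 CPM (35 rose and 39 fell) and 45 at 2000 CPM (6 rose and 16 fell). With the geometric mean in place of the mean it gave 82, of which 14 rose and 11 fell, so there the rises outnumbered the falls. The cause of these shifts was not tested.

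Of the 59 members short of the threshold, 18 kept their sign under all 14 alternatives and 41 did not, 33 of them changing sign on library totals. Among those named in the text, on library totals the log2 fold change was -0.062 for Mac_TR184982_c1_g2, -0.084 for Mac_TR18113_c0_g2, -0.20 for Mac_TR48045_c1_g1, -0.48 for Mac_TR28438_c2_g1, -0.30 for Mac_TR86766_c0_g1, -0.28 for Mac_TR82396_c0_g1, -0.73 for Mac_TR42574_c2_g1, -0.33 for Mac_TR179733_c0_g5, -0.14 for Mac_TR179733_c0_g16, -0.57 for Mac_TR179733_c0_g12, -0.46 for Mac_TR30348_c2_g2, -0.14 for Mac_TR30348_c2_g1, -0.66 for Mac_TR18113_c0_g1, -0.27 for Mac_TR28438_c2_g4, -0.85 for Mac_TR95241_c0_g1 and -0.84 for Mac_TR58181_c0_g2. On library totals without the most abundant feature it was -0.0029 for Mac_TR42574_c2_g1, -0.12 for Mac_TR95241_c0_g1 and -0.11 for Mac_TR58181_c0_g2. With no filter on low counts it was -0.15, -0.28 and -0.27 for the same features, and with the most abundant feature left out -0.028 for Mac_TR95241_c0_g1 and -0.023 for Mac_TR58181_c0_g2. With 1 library left out, the ranges that crossed 0 were -0.41 to 0.016 for Mac_TR58928_c1_g2, -0.13 to 0.65 for Mac_TR18113_c0_g1, -0.089 to 0.76 for Mac_TR179733_c0_g12, -0.14 to 0.13 for Mac_TR95241_c0_g1, -0.16 to 0.16 for Mac_TR58181_c0_g2 and -0.19 to 0.15 for Mac_TR77557_c0_g2. Some named members short of the threshold gained a call. Mac_TR149098_c7_g2 passed under 5 of the 14 alternatives, and Mac_TR58928_c1_g4 and Mac_TR58193_c2_g2 under 3 each. Mac_TR18113_c0_g2, Mac_TR179733_c0_g16, Mac_TR30348_c2_g1 and Mac_TR104088_c0_g3 passed under 1 each.

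The smallest p that 3 libraries against 3 allow is 0.1 in a permutation test, so shares and ratios compared between the times of A. maculatum could not pass 0.05. The species comparisons of shares, over 400 arrangements, are not bound by that limit. The smallest count of a member in a library was 46.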
